A study of Mus musculus with 2 samples.

Results

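The Zfp genes are mouse genes named for the zinc finger proteins they encode, and 293 of them were expressed in the embryonic stem cells of this study. They were taken by symbol (Zfp, a number and at most 1 letter) and by a minimum of 400 reads summed over the 2 libraries. The symbol pattern found 400 genes among 55414 gene identifiers, of which 12 were listed at 0 reads in both libraries, 90 had 1 to 399 reads and 298 reached the minimum. Of the 12, 3 share exon positions with another gene, where the counter by default leaves shared reads out, and a 0 in these tables does not show that a gene was silent. Of the 298, Zfp42, Zfp352, Zfp365, Zfp385a and Zfp750 were left out by name, which leaves 293. The members were thus chosen by their summed read counts, not by the difference between the libraries, and those counts are given as a description. The 5 names were left out with their values known, and those values are given further on.

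Most Zfp proteins carry C2H2 zinc fingers, small folds in which 2 cysteines and 2 histidines hold a zinc ion and which stand in a row to read a DNA sequence. Many also carry a KRAB domain at the amino end, which binds Trim28 (KAP1) and through it Setdb1, the enzyme that places the histone mark H3K9me3 at retroelements and imprinted regions. The KRAB genes multiplied by gene duplication and lie in clusters, and in embryonic stem cells they are known for silencing endogenous retroviruses and for keeping imprints.

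RNA was sequenced from R1E, a line of mouse embryonic stem cells of WT genotype. The first library came from cells given 0.5 µM Adriamycin for 8 h and the second from untreated cells labelled 0 h; both were grown in serum medium with leukemia inhibitory factor, which holds mouse stem cells in the undifferentiated state. Adriamycin is doxorubicin, a drug that traps topoisomerase II on DNA and leaves breaks. Each condition had 1 library, with no replicate and no untreated library at 8 h, so a difference between cultures or in time in culture cannot be told apart from the drug, and no test between the conditions was possible. In bulk RNA, fewer cells of a type and less RNA per cell cannot be told apart either.

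The Adriamycin library held 38561292 reads counted to genes and the untreated library 41820999. CPM are reads scaled to TMM library size, RPKM are the same per kilobase of exon, and log2 ratios are Adriamycin over untreated. Calls rest on size alone: higher or lower means 2-fold or more. Intervals are 95% exact counting intervals of the log2 ratio; they cover counting error only, and since the 2 mates of a pair were counted separately they are too narrow. All 10 embryonic stem cell markers on the list were present in both libraries, with a summed level of 4180 CPM in the Adriamycin library and 7680 CPM in the untreated library. Of the 10, 7 were at least 2-fold lower, against 6.16% of all genes with at least 400 reads. With total read counts 3 of the 10 were lower, against 4% of those genes. Fibroblasts are the usual feeder cells of such cultures. The 12 fibroblast markers summed to 134 CPM in the Adriamycin library and 44.3 CPM in the untreated library. Of the 5 with at least 400 reads 3 were higher, against 12.5% of all genes, and the median log2 ratio of the 5 was 1.66. Fbln2 had 2177 reads in the Adriamycin library and 247 in the untreated library, Col1a1 had 1295 and 214, and Bgn had 371 and 115. Pdgfrb had 971 and 636 reads in those libraries (log2 ratio 0.58) and Thy1 had 448 and 484 (-0.14). Under the minimum, Col1a2 had 62 and 59 reads and Col6a1 had 107 and 7, while Col3a1, Dcn, Lum, Postn and S100a4 had no read in either. The part of either list in the Zfp values was not tested.

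As a group the Zfp genes differed less between the 2 libraries than expressed genes in general. In the Adriamycin library 15 of the 293 (5.12%) were at least 2-fold higher, against 12.5% of the 11382 genes with at least 400 reads, and 13 (4.44%) were at least 2-fold lower, against 6.16% of those genes. The remaining 265 (90.4%) were within 2-fold, against 81.4% of all genes. Their median log2 ratio was -0.02, with quartiles at -0.35 and 0.32, against a median of -0.09 and quartiles at -0.48 and 0.42 for all genes. A ratio of 4-fold or more was found for 4 members (1.37%) and for 600 of all genes (5.27%). Of the 293, 145 had a positive and 148 a negative log2 ratio. The counting interval lay above 0 for 109, lay below 0 for 117 and held 0 for 67. The split of 15 higher to 13 lower depended on the scaling. With total read counts it was 19 (6.48%) to 6 (2.05%), against 14.6% and 4% of all genes, whose median was 0.05. With upper-quartile factors it was 13 (4.44%) to 18 (6.14%), against 11% and 8.7% of all genes, whose median was -0.22.

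**Figure D1:**
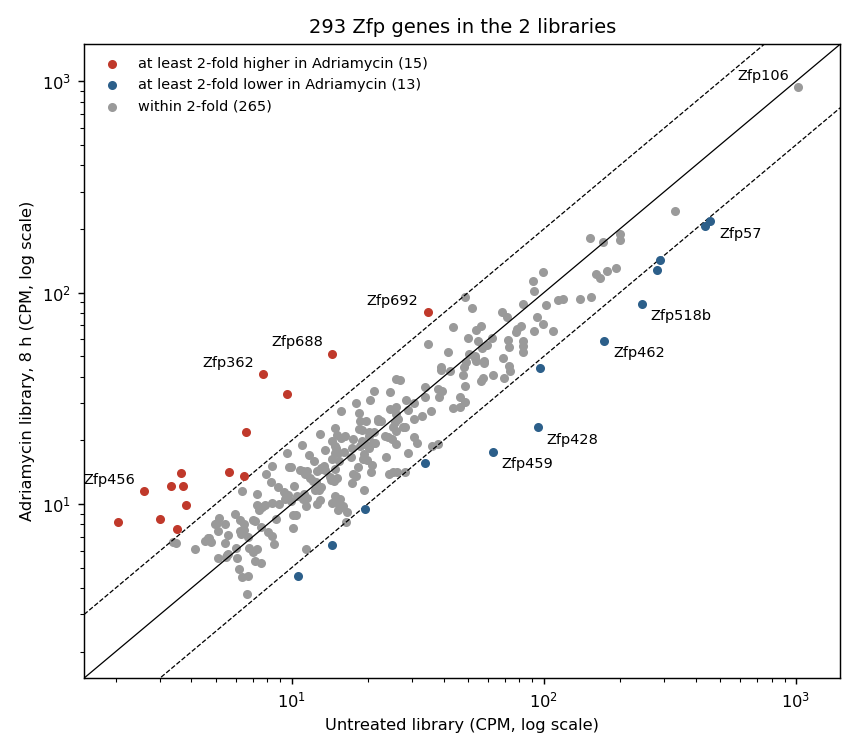
Level of each of the 293 Zfp genes in the Adriamycin library (vertical axis, CPM, log scale) against the untreated library (horizontal axis, CPM, log scale). The solid line marks equal levels and the broken lines 2-fold; 15 genes lie above the upper line, most of them at low CPM, and 13 lie below the lower line, among them Zfp57 and Zfp518b at high CPM.

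The Zfp genes were weakly expressed. Their median level was 3.90 RPKM in the Adriamycin library and 3.79 RPKM in the untreated library, while all genes with at least 400 reads had medians of 8.76 and 8.51 RPKM in the same libraries. Together they held 417412 reads, 1.08% (exact binomial interval 1.079 to 1.086%) of the reads counted to genes in the Adriamycin library. In the untreated library they held 482598 reads, 1.15% (1.151 to 1.157%). Their summed CPM had a log2 ratio of -0.24, which lies further down than the median of the single genes. That ratio depends on the scaling: it includes the TMM factors (1.05 for the Adriamycin and 0.951 for the untreated library), while the 2 percentages do not.

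The direction went with the number of reads. Of 158 members with 400 to 1599 reads summed, 11 were higher and 3 lower, with a median log2 ratio of 0.15. Of 107 members with 1600 to 6399 reads, 4 were higher and 4 lower, with a median of -0.12. Of the 28 members with 6400 reads or more, none was higher and 6 were lower, with a median of -0.42. All genes leaned the same way, with medians of 0.13, -0.08 and -0.29 in these bands. In each band a smaller share of members than of all genes was higher, 6.96%, 3.74% and 0% against 19.9%, 10.7% and 7.32%. In the top band the share lower was 21.4% of members against 8.47% of all genes, but with total read counts it was 7.14% (2 of 28) against 4.82%. Across the 293 members, which share the 2 libraries, the log2 ratio and the mean CPM had a Spearman correlation of -0.35 and a Pearson correlation of -0.21.

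**Figure D2:**
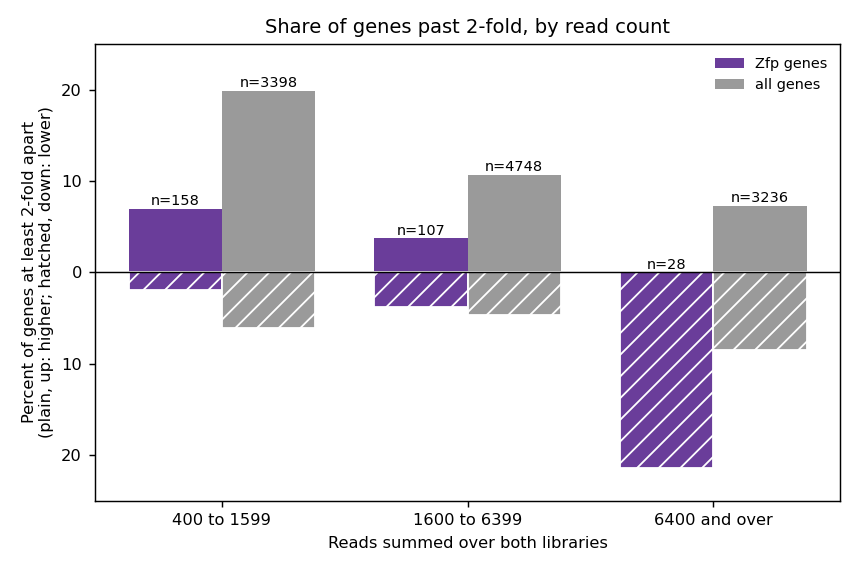
Percent of genes at least 2-fold higher (plain bars, upward) and lower (hatched bars, downward) in the Adriamycin library, for Zfp genes and for all genes, by reads summed over both libraries, with the number of genes above each bar. The share higher is smaller for Zfp genes in every band, and in the band of 6400 reads or more 21.4% of Zfp genes were lower and none was higher (7.14% lower with total read counts).

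The higher members were led by Zfp362, with 1670 reads (41.2 CPM) in the Adriamycin library and 306 reads (7.69 CPM) in the untreated library. It lies at chr4:128666881-128699838 (GRCm39, minus strand), and its 5.35-fold difference (log2 ratio 2.42, interval 2.24 to 2.60) was the widest of the 15 upward. Zfp456, which encodes a KRAB protein of 10 fingers, had 466 reads (11.5 CPM) in the Adriamycin library and 103 (2.59 CPM) in the untreated library, a log2 ratio of 2.14 (1.84 to 2.47). Its exons overlap those of Gm17039 (opposite strand), with 10 reads and 1 read in those libraries, and of Gm28041 (same strand), with none. Zfp994 had 334 reads (8.24 CPM) in the Adriamycin library and 81 (2.04 CPM) in the untreated library, and Zfp995, in the same cluster on chromosome 17, had 567 (14.0 CPM) and 145 (3.65 CPM). Both thus stood about equally far apart, at log2 ratios of 2.01 (1.66 to 2.39) for Zfp994 and 1.94 (1.67 to 2.21) for Zfp995. More than 20% of the 50-base stretches of Zfp995 also occur in other genes, so some of its reads may have been lost in counting.

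Zfp688 had 2083 reads (51.4 CPM) in the Adriamycin library and 578 (14.5 CPM) in the untreated library, a 3.53-fold difference. Zfp28 had 1351 reads in the Adriamycin library and 380 in the untreated library, and Zfp248 had 884 and 262. Zfp651 had 489 reads in the Adriamycin library and 132 in the untreated library. That gene shares exon positions with the opposite-strand gene E530011L22Rik, at 95 and 14 reads. The counting command set no option for strand or overlap, so by default reads on the shared positions were left out of both genes. Zfp536, a repressor of neuronal differentiation, had 493 reads (12.2 CPM) in the Adriamycin library and 147 (3.70 CPM) in the untreated library, a log2 ratio of 1.72 (1.45 to 1.99). Zfp287 had 345 reads in the Adriamycin library and 119 in the untreated library, and Zfp316 had 577 and 223. Zfp692 stood at the highest level per length of the 15, with 3283 reads (41.2 RPKM) in the Adriamycin library and 1378 (17.7 RPKM) in the untreated library, a log2 ratio of 1.22 (1.13 to 1.32). The 15 were completed by Zfp612, Zfp54 and Zfp113, at log2 ratios of 1.37, 1.12 and 1.06. With 2-fold as the mark, Zfp113 and Zfp54 were within it under upper-quartile factors.

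The 13 lower members included some of the Zfp genes with most reads. Zfp428, at chr7:24206431-24215107 (plus strand), had 931 reads (23.0 CPM) in the Adriamycin library and 3751 (94.3 CPM) in the untreated library. Its 4.11-fold difference (log2 ratio -2.04, interval -2.14 to -1.93) was the widest downward. Zfp459 had 714 reads (17.6 CPM) in the Adriamycin library and 2488 (62.6 CPM) in the untreated library, a log2 ratio of -1.83 (-1.95 to -1.71). Zfp462, a large protein of 33 fingers that is known to place heterochromatin over lineage genes in mouse stem cells, had 2399 reads (59.2 CPM) in the Adriamycin library and 6862 (173 CPM) in the untreated library. Zfp518b, whose human counterpart binds the H3K9 methyltransferase G9a, had 3576 reads (88.2 CPM) in the Adriamycin library and 9703 (244 CPM) in the untreated library. For Zfp428 the overlapping opposite-strand gene AC161166.1 had 27 reads in the Adriamycin library and 52 in the untreated library, and for Zfp459 the overlapping Gm48900 had none. These 4 were 2.77-fold to 4.11-fold lower in the Adriamycin library, and their intervals lay wholly past 2-fold.

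The other 9 lower members lay between 2.01-fold and 2.32-fold. Zfp57, the KRAB protein that guards DNA methylation at imprinted regions, had 8779 reads in the Adriamycin library and 18121 in the untreated library, a log2 ratio of -1.07 (-1.11 to -1.04). Zfp207, or BuGZ, a spindle and kinetochore protein that stabilises Bub3, had 8390 and 17276 reads in those libraries and the same log2 ratio, -1.07 (-1.11 to -1.03). Zfp710 had 5171 reads in the Adriamycin library and 11202 in the untreated library, and Zfp740 had 5790 and 11444. Of these, Zfp740 stood closest to the mark, at 2.01-fold, and shares exon positions with Csad, an opposite-strand gene with 2317 reads in the Adriamycin library and 3458 in the untreated library. Zfp280b had 1774 reads in the Adriamycin library and 3838 in the untreated library, and Zfp59 had 631 and 1346. Of Zfp59, 52.4% of the 50-base stretches of its transcripts also occur in other genes, so some of its reads may have been lost in counting. The fewest reads were those of Zfp773 with 185 reads in the Adriamycin library and 422 in the untreated library, of Zfp827 with 259 and 573, and of Zfp819 with 385 and 777. With total read counts as the scaling, Zfp57, Zfp207, Zfp710, Zfp740, Zfp280b, Zfp59 and Zfp819 came out less than 2-fold lower, and the 6 others were still past it. Of the 28 members past 2-fold in either direction 8 share exon positions with another gene, and beyond the partners already given those of Zfp248, Zfp54 and Zfp710 had at most 85 reads in a library.

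**Figure D3:**
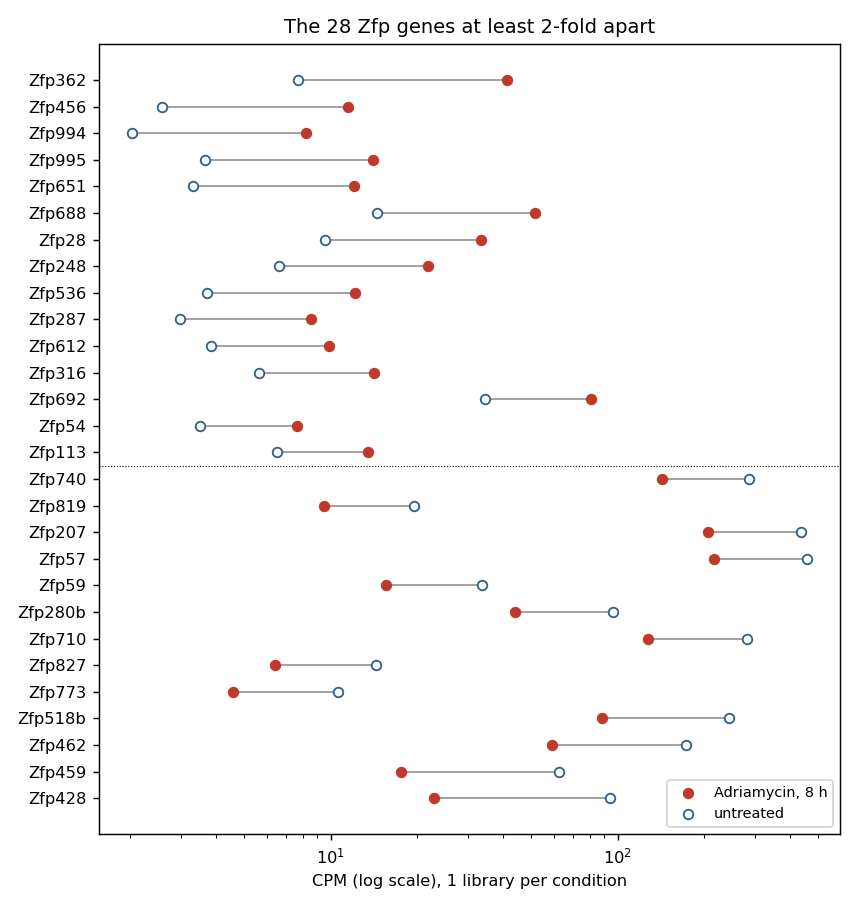
CPM (log scale) of the 28 Zfp genes at least 2-fold apart, in the Adriamycin library (filled) and the untreated library (open), 1 library each, ordered by ratio. The 15 higher members lie mostly under 15 CPM in the untreated library, and Zfp57 and Zfp207 lie above 400 CPM there.

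The members with most reads or the highest RPKM showed small differences or were lower. Zfp106, an RNA-binding protein needed by motor neurons, had 38174 reads (90.3 RPKM) in the Adriamycin library and 40452 (97.5 RPKM) in the untreated library, a log2 ratio of -0.11. Zfp57 had the highest level per length in the untreated library and stood at 57.2 RPKM in the Adriamycin library. Zfp598, the ubiquitin ligase that marks collided ribosomes, had 48.6 RPKM in the Adriamycin library and 51.6 RPKM in the untreated library, a log2 ratio of -0.09. Zfp568 had 9877 reads in the Adriamycin library and 13208 in the untreated library, a log2 ratio of -0.45.

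By role, none of the 8 lists of Zfp genes had more than 1 member past 2-fold, and all 8 medians lay below 0. The 8 lists hold 47 different members, of which 1 (2.13%) was higher and 6 (12.8%) were lower, against 12.5% and 6.16% of all genes. Most of the 47 have many reads, and at 1600 reads or more the median was -0.28 for 38 list members and -0.17 for all genes. With total read counts the medians of the retroelement, the RNA and the lineage lists were just above 0 (0.06, 0.01 and 0.03). Under that scaling the imprint, retroelement and mitosis lists had 0 lower, and the chromatin list had 1 higher and 1 lower. Of all genes 14.6% were then higher and 4% lower. With upper-quartile factors the pluripotency list had 2 lower (28.6%, against 8.7% of all genes), so these counts depended on the scaling. The 3 genes of imprint control had a median log2 ratio of -0.45: besides Zfp57, Zfp568, which represses a placental Igf2 transcript, was at -0.45, and Zfp445, which acts on imprints together with Zfp57, was at -0.22. The retroelement list had 3 members in use. Zfp809, which recruits Trim28 to murine leukemia proviruses, had 3420 reads (84.3 CPM) in the Adriamycin library and 2057 (51.7 CPM) in the untreated library, a log2 ratio of 0.71 (0.63 to 0.79). Zfp932, a repressor of endogenous retroviruses, was at -0.08 and its interval held 0, and Zfp819, which is known to restrain retroelements in mouse stem cells, was at -1.04. The 3 thus pointed in different directions. Zfp92 and Zfp708, also listed, were under the minimum, with 103 and 7 reads for Zfp92 in the Adriamycin and the untreated library and a listed count of 0 for Zfp708, whose exons overlap those of other genes on the same strand.

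Of the 7 pluripotency members in use 1 was lower (14.3%, against 6.16% of all genes), and the median log2 ratio was -0.39. Beside Zfp462, Zfp322a, an activator of Pou5f1 and Nanog, had 780 reads in the Adriamycin library and 1515 in the untreated library, a 1.98-fold difference just inside the mark. Zfp143 was at a log2 ratio of -0.81, Zfp217 at -0.39, and Zfp281, which drives the exit from pluripotency, at -0.35. Zfp706 was at -0.17 and Zfp296 at 0.11. In this list 6 of 7 were negative. The 10 stem cell markers had a median log2 ratio of -1.08 and ran from -1.89 to -0.11. Among them Nanog had 7436 reads in the Adriamycin library and 23059 in the untreated library (-1.66), while Pou5f1 was at -0.51 and Sox2 at -0.42. Zfp982 and Zfp131, also listed, were under the minimum, with 113 and 193 reads for Zfp982 in those libraries and a listed count of 0 for Zfp131.

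The list for DNA damage, topoisomerase repair and p53 was split, with 4 of its 9 members positive and a median log2 ratio of -0.15. Of the 9, 1 was lower (11.1%, against 6.16% of all genes). Zfp451 is a SUMO ligase that helps Tdp2 to remove trapped topoisomerase II, the lesion that doxorubicin makes, and it had 4568 reads (113 CPM) in the Adriamycin library and 3588 (90.2 CPM) in the untreated library. Its log2 ratio of 0.32 (0.26 to 0.38) is 1.25-fold. Zfp420, known as the p53 repressor Apak, was at 0.44, Zfp346, or JAZ, at 0.27, and Zfp668 at 0.05 with an interval that held 0. Zfp830 was at -0.15, Zfp148, which binds p53, at -0.23, Zfp212 at -0.32 and Zfp280c at -0.45. Zfp827, whose human counterpart brings the NuRD complex to telomeres, was the lower one, at -1.17 (-1.39 to -0.96). A further 3 genes of the list were under the minimum: Zfp385c had 244 reads in the Adriamycin library and 44 in the untreated library, Zfp768 had 231 and 134, and Zfp385b had 8 and 12.

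Among the 12 members of chromatin complexes 1 was lower (8.33%, against 6.16% of all genes) and none higher, with a median log2 ratio of -0.37. The paralogues Zfp518a and Zfp518b lay on opposite sides: Zfp518a had 3865 reads in the Adriamycin library and 1935 in the untreated library (log2 ratio 0.97, 1.96-fold), and Zfp518b was at -1.47. With total read counts Zfp518a was past 2-fold. The 3 genes of the complex that the human counterparts form with ZMYND8 were all below 0, Zfp687 at -0.71, Zfp532 at -0.49 and Zfp592 at -0.32. Zfp410, an activator of Chd4, was at 0.13, while Chd4 itself had 19628 reads in the Adriamycin library and 36258 in the untreated library (log2 ratio -0.91). The others ran between -0.52 for Zfp609 and 0.62 for Zfp276.

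Of the 7 members that act on RNA, ribosomes or ubiquitin none was past 2-fold. Zfp36 (tristetraprolin), which speeds the decay of AU-rich mRNAs, had 559 reads in the Adriamycin library and 965 in the untreated library, a log2 ratio of -0.81, and Zfp638, which silences unintegrated retroviral DNA, was at -0.57. Zfp91 was at 0.60, Zfp622 at -0.30 and Zfp326 at -0.14. Of 6 lineage and development members, Zfp536 was higher and the others ran between -0.74 for Zfp292 and 0.32 for Zfp354a, with Zfp423 at 0.01. A further 7 genes of that list had too few reads. Among them Zfp703 had 316 reads in the Adriamycin library and 28 in the untreated library, and Zfp469 had 161 and 14, both 10.9-fold higher but under the minimum. Zfp467 went the other way, with 0 reads in the Adriamycin library and 29 in the untreated library.

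The genes of the proteins through which KRAB members act leaned below 0 as a list. Of 18 in use 2 were at least 2-fold lower (11.1%, against 6.16% of all genes) and none was higher (12.5% of all genes). Of the 18, 17 had a negative log2 ratio, and the median was -0.60. All genes leaned the same way at high read counts: the 14 partners with at least 6400 reads had a median of -0.60 and 2 lower (14.3%), against a median of -0.29 and 8.47% lower for all genes in that band. Trim28, the corepressor bound by the KRAB domain, had 78487 reads in the Adriamycin library and 175934 in the untreated library, a log2 ratio of -1.19 (-1.21 to -1.18). Cbx1, a heterochromatin protein that reads H3K9me3, had 4040 reads in the Adriamycin library and 8150 in the untreated library (-1.04). Setdb1 was at -0.69, Cbx3 at -0.93, Cbx5 at -0.45, Mphosph8 of the HUSH complex at -0.84 and Smarcad1 at -0.87. Chd4 was at -0.91, Atrx at -0.63, Morc3 at -0.61, Uhrf1 at -0.59, Hdac1 at -0.57 and Morc2a at -0.50. Nearest to 0 among the negative ones were Atf7ip at -0.07, Chd3 at -0.18, Hdac2 at -0.25 and Daxx at -0.32. Dnmt1, the maintenance DNA methyltransferase, was the exception, at 0.17. With total read counts 1 of the 18 was at least 2-fold lower (5.56%, against 4% of all genes) and 16 were negative. With upper-quartile factors 4 were at least 2-fold lower (22.2%) and 17 negative. Of all genes 8.7% were then lower, and 11.9% of those with at least 6400 reads.

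**Figure D4:**
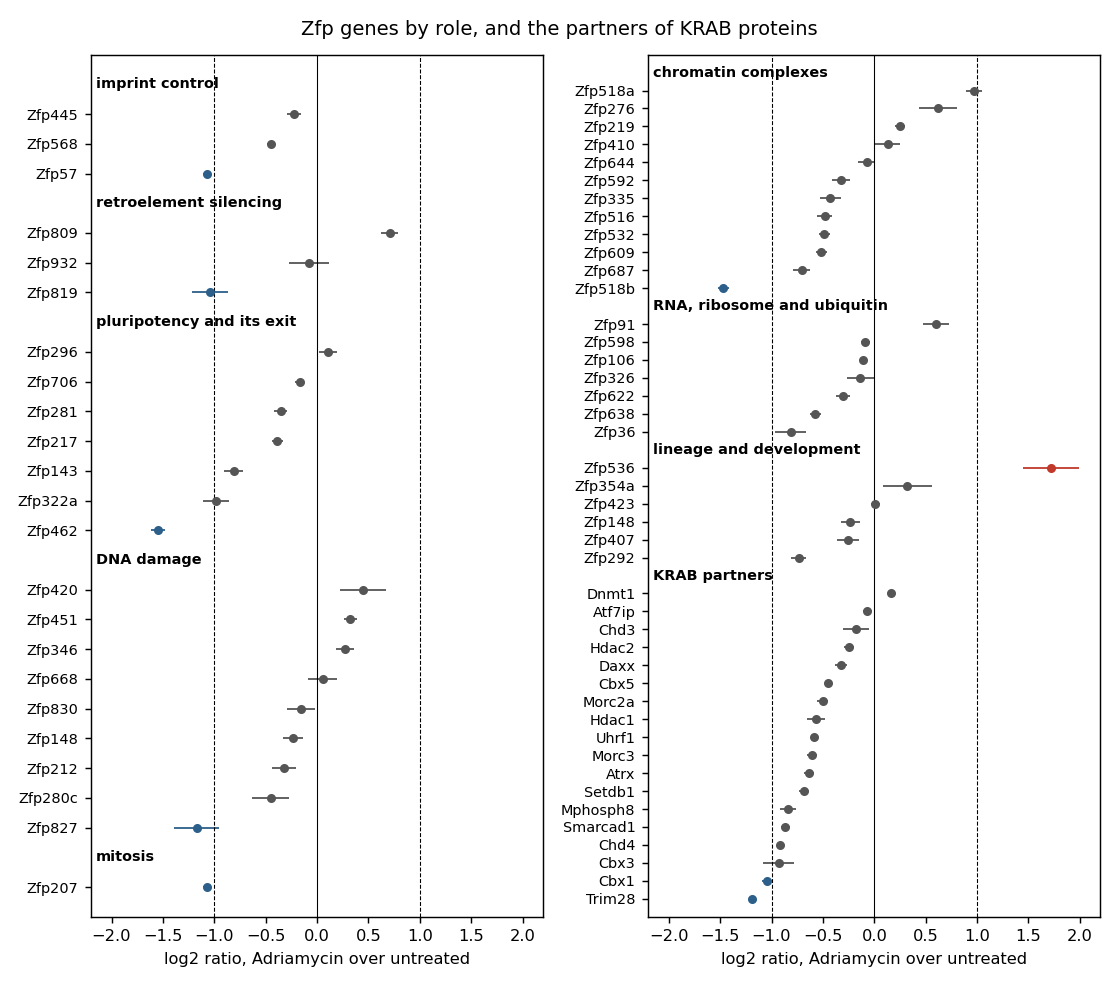
Log2 ratio (Adriamycin over untreated) of the Zfp genes on each role list and of the KRAB partner proteins, with 95% counting intervals as bars, 1 library per condition, and broken lines at 2-fold. Zfp57, Zfp819, Zfp462, Zfp827, Zfp207 and Zfp518b lie at least 2-fold lower, Zfp536 lies higher, and 17 of 18 partner genes lie below 0. With total read counts Zfp57, Zfp819 and Zfp207 came within 2-fold and Zfp518a past it.

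Proteins were compared by translating the longest coding sequence of each gene. Of 292 members with one, 280 held at least 2 C2H2 finger patterns, 9 held 1 and 3 held none, with a median of 10 and at most 36. A KRAB pattern was found in 137 and a second one, which reads other residues of the domain, in 134. Either was found in 159, so the first may miss KRAB members. The higher members Zfp28 and Zfp248 held only the second and are among the others here. KRAB members by the first pattern had 8 higher (5.84%), 3 lower (2.19%) and a median log2 ratio of 0.05. The 143 others with at least 2 fingers had 7 higher (4.90%), 9 lower (6.29%) and a median of -0.05. Of all genes 12.5% were higher and 6.16% lower. Both medians were positive with total read counts (0.19 and 0.10) and negative with upper-quartile factors (-0.07 and -0.17). With the second KRAB pattern both medians were 0.01. The 42 members with at most 4 fingers had 1 higher and 6 lower, with a median of -0.23. The 6 (14.3%, against 6.16% of all genes) were Zfp428, Zfp459, Zfp518b, Zfp57, Zfp207 and Zfp740. With total read counts the first 3 of these were past 2-fold (7.14%, against 4% of all genes). The number of fingers itself had a Spearman correlation of 0.07 and a Pearson correlation of 0.03 with the log2 ratio across 292 members, which share the 2 libraries.

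In the genome 161 members lay in 26 clusters, runs of at least 3 members with gaps of at most 500 kb. Clustered members had 7 higher (4.35%), 5 lower (3.11%) and a median log2 ratio of 0.05. The 132 others had 8 higher (6.06%), 8 lower (6.06%) and a median of -0.08. Of all genes 12.5% were higher and 6.16% lower. Within most clusters the members pointed both ways. The cluster on chr13:67269724-67940631 (GRCm39) held both Zfp456, at 2.14, and Zfp459, at -1.83, among 14 members with a median of 0.11. Both lie on the minus strand, and their proteins were 41.3% and their promoters 54.7% identical. Their promoter sequences, from RefSeq (GRCm38.p6, 250 bases before to 50 after the start), are shown because they belong to adjacent members with opposite differences. Zfp456 is at chr13:67375714-67376013 (minus strand) and Zfp459 at chr13:67421369-67421668 (minus strand). Capitals mark the CCAAT box (CCAAT) and the GC box (GGGCGG) on either strand, of which the promoter of Zfp456 held both and that of Zfp459 held neither.
Zfp456: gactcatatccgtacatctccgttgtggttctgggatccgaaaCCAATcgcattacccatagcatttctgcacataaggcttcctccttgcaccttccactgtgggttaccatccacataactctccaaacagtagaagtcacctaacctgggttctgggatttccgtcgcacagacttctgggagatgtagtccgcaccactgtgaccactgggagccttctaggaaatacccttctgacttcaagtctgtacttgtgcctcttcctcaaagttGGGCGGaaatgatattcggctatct
Zfp459: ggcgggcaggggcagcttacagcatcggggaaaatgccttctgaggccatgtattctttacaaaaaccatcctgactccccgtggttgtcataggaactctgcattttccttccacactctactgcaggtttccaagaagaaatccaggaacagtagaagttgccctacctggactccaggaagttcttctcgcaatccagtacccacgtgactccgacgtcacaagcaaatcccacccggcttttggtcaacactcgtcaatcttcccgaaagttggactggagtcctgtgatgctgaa

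The largest cluster, chr17:21229165-23818461, leaned upward. Of its 16 members 3 (18.8%, against 12.5% of all genes) were at least 2-fold higher, namely Zfp994, Zfp995 and Zfp54. Each of these had 400 to 1599 reads, a band in which 19.9% of all genes were higher. The median log2 ratio was 0.30, and 15 of the 16 had a positive one. The exception was Zfp945, with 819 reads in the Adriamycin library and 994 in the untreated library, a log2 ratio of -0.31. The only 2 other genes there with at least 400 reads, CT030661.1 and AC098880.2, were at 1.63 and 1.66. With upper-quartile factors 13 of the 16 were positive and 2 (12.5%) were at least 2-fold higher, against 11% of all genes. On chr7:42122810-43267709 the lean was downward, with 6 of 8 members negative, a median of -0.68 and Zfp819 at least 2-fold lower, and the 5 other genes there had a median of -0.69. The members of the remaining clusters of at least 5 had medians between -0.43 and 0.25, apart from a cluster on chromosome 4.

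**Figure D5:**
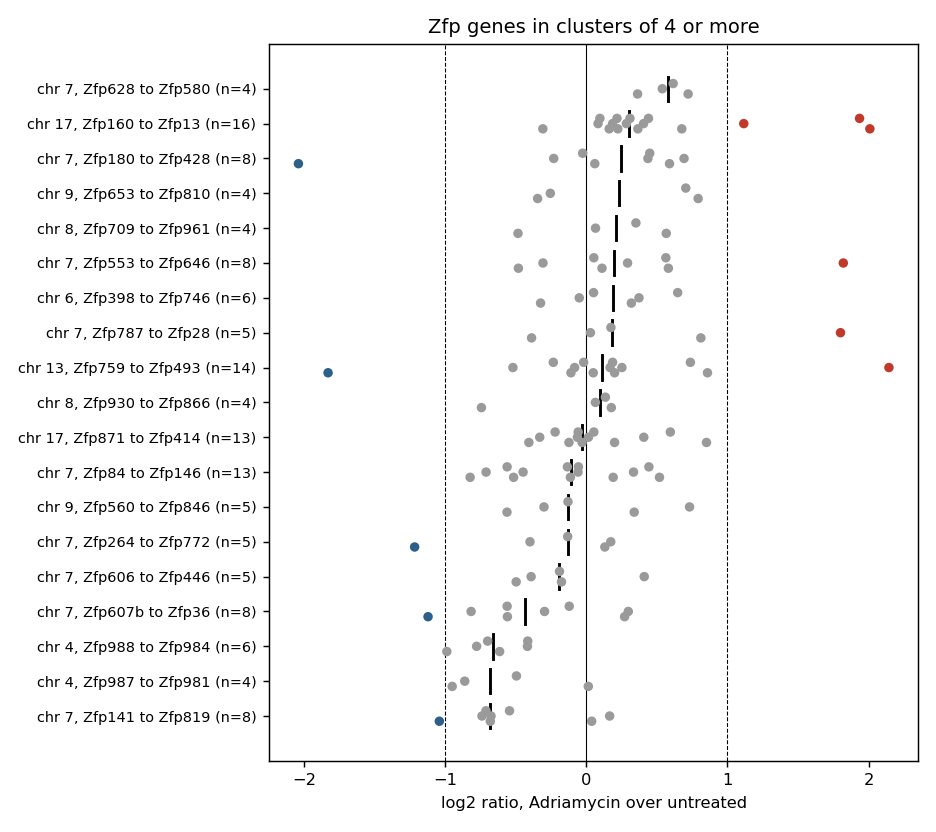
Log2 ratio (Adriamycin over untreated) of each Zfp gene in clusters of 4 or more, 1 point per gene, with the median of each cluster as a bar and broken lines at 2-fold; clusters are named by chromosome and first and last gene. The 16 members from Zfp160 to Zfp13 lie above 0 but for 1, the members of both chromosome 4 clusters lie below 0 but for 1, and the cluster from Zfp759 to Zfp493 holds the members farthest apart.

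On distal chromosome 4, within chr4:145237329-147894245, 12 KRAB members lay in duplicated sequence, and 11 of them had a negative log2 ratio. Their median log2 ratio was -0.66, from -0.99 to 0.01, and 0 of the 12 passed the mark. Zfp984 had 577 reads in the Adriamycin library and 1122 in the untreated library (-0.99), Zfp992 had 757 and 1434 (-0.95), and Zfp979 had 1732 and 2910 (-0.78). Zfp600 was at -0.86, Zfp980 at -0.84, Zfp978 at -0.70 and Zfp985 at -0.61. The 4 nearest to 0 among the negative ones were Zfp990 at -0.50, Zfp987 at -0.49, Zfp534 at -0.42 and Zfp988 at -0.41. Zfp981 stood apart, with 2073 reads in the Adriamycin library and 2013 in the untreated library, a log2 ratio of 0.01 (-0.08 to 0.10).

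The 4 other genes with at least 400 reads between them, Gm13228, Gm13034, Gm21411 and Gm13136, had log2 ratios from 0.01 to 0.91 and a median of 0.45. With total read counts the median of the 12 was -0.51, with 11 negative. With upper-quartile factors it was -0.78, with all 12 negative and 2 at least 2-fold lower (16.7%, against 8.7% of all genes). More than 20% of the 50-base stretches of 11 of the 12 also occurred in other genes, with up to 93.1%, so how completely their reads were counted is uncertain. Zfp985, the only one at or under 20%, was at -0.61. Elsewhere, the 23 members with over 20% shared sequence had a median of 0.02, with 11 negative and 12 positive. Between pairs of the 12, proteins were 33.1 to 90.4% identical (median 61.4%, 66 pairs) and promoters 66.3 to 96.3% (median 81.2%, 36 pairs).

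The promoters of this group are shown because most of them share an element that is rare elsewhere, and because Zfp981, whose level was nearly equal in the 2 libraries, holds it like Zfp984 and Zfp979, whose log2 ratios were negative. They are RefSeq windows on GRCm38.p6 at chr4:147809739-147810038 (minus strand), chr4:147642459-147642758 (minus strand) and chr4:146514670-146514969 (plus strand). The promoter of Zfp994, one of the higher members of chromosome 17, at chr17:22225565-22225864 (minus strand), is given beside them. Capitals again mark CCAAT and GC boxes, and in the longest run in capitals (ATTGGGCGG, a reversed CCAAT box that runs into a GC box) they overlap.
Zfp984: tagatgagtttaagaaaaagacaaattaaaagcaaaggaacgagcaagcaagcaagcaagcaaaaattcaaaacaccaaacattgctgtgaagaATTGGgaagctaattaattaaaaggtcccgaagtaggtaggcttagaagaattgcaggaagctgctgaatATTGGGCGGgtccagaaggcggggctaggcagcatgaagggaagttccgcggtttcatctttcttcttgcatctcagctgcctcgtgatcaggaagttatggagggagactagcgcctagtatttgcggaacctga
Zfp979: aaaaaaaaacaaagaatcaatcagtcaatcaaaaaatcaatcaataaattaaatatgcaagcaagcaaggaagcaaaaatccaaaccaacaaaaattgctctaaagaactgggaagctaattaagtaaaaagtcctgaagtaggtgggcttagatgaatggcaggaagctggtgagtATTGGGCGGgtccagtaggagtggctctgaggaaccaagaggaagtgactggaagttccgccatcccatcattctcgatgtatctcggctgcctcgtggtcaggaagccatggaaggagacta
Zfp981: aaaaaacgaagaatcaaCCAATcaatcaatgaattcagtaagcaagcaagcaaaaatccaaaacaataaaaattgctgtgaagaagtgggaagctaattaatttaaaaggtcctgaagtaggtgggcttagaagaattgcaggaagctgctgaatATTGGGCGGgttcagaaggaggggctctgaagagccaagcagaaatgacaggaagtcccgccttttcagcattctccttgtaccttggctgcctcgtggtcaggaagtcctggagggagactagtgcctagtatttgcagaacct
Zfp994: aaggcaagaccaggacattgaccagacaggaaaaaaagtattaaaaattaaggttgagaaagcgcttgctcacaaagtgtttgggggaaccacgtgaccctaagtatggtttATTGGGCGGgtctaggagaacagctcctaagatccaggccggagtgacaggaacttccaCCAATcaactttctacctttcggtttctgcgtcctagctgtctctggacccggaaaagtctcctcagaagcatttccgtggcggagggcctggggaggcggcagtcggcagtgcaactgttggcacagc

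This joined element, searched on both strands, stood in 7 of the 9 promoters available for the group, in 11 of 243 member promoters (4.53%) and in 75 of all 27025 (0.278%). It was seen on these sequences first and then counted. Members with it had a median log2 ratio of -0.41 (11 genes, 1 higher and 7 negative), and the 232 without it had a median of 0.03. Outside distal chromosome 4 the 4 members with it had a median of 0.14 and 1 was negative. The boxes it is made of were counted alone too, each on both strands.

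Over the 243 members with a RefSeq promoter, of 293, the CCAAT box was found in 51.9%, against 39.3% of genes with at least 400 reads and 37.9% of all promoters. It was found in 65.2% of the 115 promoters of KRAB members and in 39.8% of the 128 others. KRAB members here are those with the first pattern, and the others may include KRAB members that it misses. The GC box was found in 45.3% of member promoters, against 68.1% of genes with at least 400 reads. KRAB members had a median of 10 CG dinucleotides in the window, the other members 19 and genes with at least 400 reads 22. The ETS core (CCGGAA, both strands) was found in 7 of 12 promoters of higher members and in 1 of 12 of lower members, against 35.4% of all member promoters, 30.1% of genes with at least 400 reads and 15.2% of all promoters. The TATA box (TATAAA, both strands) was found in none of the 12 higher and 2 of the 12 lower members, against 5.35% of all member promoters, 6.24% of genes with at least 400 reads and 14.2% of all promoters. The p53 response element, searched in its full form, was found in none of the 243 and in 16 of all promoters (0.0592%). A match or its absence describes the letters in this window only.

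Near the minimum of 400 reads, Zfp3 and Zfp937 were the members just inside with 402 reads each, followed by Zfp882 with 412, and their log2 ratios were 0.91, 0.95 and 0.57. Just outside were Zfp640 with 397, Zfp14 with 391 and Zfp72 with 379, at 0.11, 0.49 and -0.57. Of the 54 Zfp genes with 100 to 399 reads 13 were at least 2-fold higher, none was lower and the median log2 ratio was 0.31; of all 3003 genes with that many reads 31.7% were higher and 9.42% lower, with a median of 0.36. Of the 5 left out by name, Zfp365 had 11907 reads in the Adriamycin library and 1321 in the untreated library, Zfp750 had 2943 and 253, and Zfp385a had 4727 and 1441. Zfp352 had 490 reads in the Adriamycin library and 268 in the untreated library, and Zfp42 (Rex1), a marker of naive pluripotency, had 6395 and 23174. Both Zfp750 at 11.4-fold and Zfp365 at 8.84-fold exceeded every member, and with the 5 kept the count was 18 higher and 14 lower.

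Other zinc finger families were set beside the Zfp genes at the same minimum, where 12.5% of all genes were higher and 6.16% lower. Of 36 Zbtb genes, which join a BTB domain to the fingers, 2 (5.56%) were higher and 2 (5.56%) lower. Their median log2 ratio was -0.06. Of 25 Zkscan and Zscan genes, which carry a SCAN domain, 3 (12%) were higher and 0 lower (median 0.29). The 9 Prdm genes included 2 higher (22.2%) and 1 lower (11.1%), with a median of -0.06. The 19 Klf and Sp genes included 1 higher (5.26%) and 2 lower (10.5%), with a median of -0.45. No difference between the families was tested, since each rests on the same 2 libraries.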

How the data were processed

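The authors deposited unnormalized read counts of each gene, in a separate table for each library. By the command in the file headers, paired reads with both ends aligned were counted over exons of GRCm39 annotation release 105 with featureCounts 2.0.3, with no option for strand, multiple mapping, overlap or fragments. The tools in the submitters' processing notes are HISAT2 2.0.4, Trim Galore 0.3.4, DESeq2 1.16.1, featureCounts 1.6.0 and FastQC, and the builds there are mm9 and mm10. Positions of genes are from the tables.

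Symbols came from GENCODE M21 by Ensembl identifier (52081 of 55414 matched). TMM factors (edgeR 4.0.16, R 4.3.3) were 1.05 for the Adriamycin and 0.951 for the untreated library. Log2 ratios used a pseudocount of 0.5 read, and intervals the exact conditional binomial (Clopper-Pearson) at 95%, with scipy 1.17.1, pandas 2.3.3 and numpy 2.4.6 in Python 3.11.15. These were tested on simulated data. With 1 library per condition no test was made. Finger and KRAB patterns were read from translations of the longest M21 coding sequence, in place of a protein table, and sequence identity used Biopython 1.88. Promoters are RefSeq windows of GRCm38.p6, the first listed per gene, and are placed on a different build from the counts.

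Members and lists were chosen with earlier results of these data known. Named are the 12 higher and 12 lower members with intervals farthest from no difference, the 5 with most reads, the 3 with highest RPKM, members of the role lists, the KRAB partners, the 3 on either side of the minimum, the extremes of clusters of at least 5, and the genes left out by name. Zfp54, Zfp113, Zfp612 and the chromosome 4 members not covered by that rule were named after their values were seen. From the KRAB partner list 1 gene is not reported here. Alternatives were other scalings, pseudocount, minimum, threshold, overlap, KRAB pattern and cluster gap.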

Additional observations from a re-analysis of the deposited data

How the results depend on the processing

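No paired analysis was possible because each condition has 1 library, and for the same reason no library could be left out. The counts of higher and lower members stayed within 1.5 times of 15 and 13 with DESeq2 size factors, a pseudocount of 5 reads, overlapping members left out (11 and 9 of 210), at least 2 fingers, and the 5 named genes kept. Intervals on halved counts gave the same counts, but no gene past 2-fold at this depth could have failed them. The same held with members of shared sequence left out (14 and 12 of 259), an alternative chosen after seeing the data, as was KRAB by either pattern.

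With total read counts 6 were lower (2.05%, against 4% of all genes), all among the 13. The medians were then 0.13 for members, 0.19 for KRAB members, 0.10 for other C2H2 members and 0.19 for clustered members. With upper-quartile factors these medians were -0.14, -0.07, -0.17 and -0.07. By minimum, 28 of 347 were higher and 13 lower with at least 100 reads. With at least 1 read 41 of 383 were higher and 18 lower. Shares of all genes at these minimums were not computed, but of all genes with 100 to 399 reads 31.7% were higher and 9.42% lower. With at least 1600 reads 4 of 135 were higher and 10 lower, and the median was -0.17. Of all genes with at least 1600 reads 9.31% were higher and 6.17% lower, with a median of -0.17 as well. The cause was not tested. At 1.5-fold 40 of the 293 were higher and 40 lower, and 72.7% of members and 60.3% of all genes were within it. Of 112 named genes, 74 moved past their counting interval with total read counts and 62 with upper-quartile factors, as the scaling shifts every gene alike. The second KRAB pattern gave medians of 0.01 for KRAB members and 0.01 for others, and either pattern gave 0.03 and -0.05. Members with few reads have wide intervals, and the difference between cultures has no measure here.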
